A study of Mus musculus with 61 samples.

Results

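The genes described here are 8 transcription regulators of the pluripotent epiblast and of the primitive streak, taken by gene symbol from the expression table of mouse stembryos: Pou5f1, Otx2, Utf1 and Pou3f1 for the epiblast, and Eomes, Mixl1, Gsc and Mesp1 for the streak and the cells that leave it. They are 8 of 55052 genes in the table. They were chosen by name and not by a cut on level, but with earlier results of these data known. Shares of the members set beside those of all genes below are therefore descriptions. All 8 had a mean of at least 1 FPKM in at least 1 condition and so entered the tests. FPKM counts fragments relative to the size of the library and to transcript length, so levels can be set side by side between genes.

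Stembryos, or gastruloids, are aggregates of mouse embryonic stem (mES) cells. The cells were kept in the naive state with LIF and inhibitors of GSK-3 and MEK, aggregated, and exposed to a pulse of the Wnt agonist Chiron that ended at 72 h after aggregation, so every library, wild type or mutant, comes from Chiron-treated aggregates. RNA-seq of 61 libraries in 28 conditions followed a wild-type time course at 72, 84, 96, 108, 120, 132, 144 and 168 h (2 libraries per stage), further wild-type libraries at 96 h (4), 120 h (4) and 144 h (2), called controls below, and lines with edits of the HoxD cluster. The edits were the deletion of single or several CTCF-binding sites, namely Del(CBS1), Del(CBS1-2), Del(CBS2) and Del(CBS4), and of all sites from CBS1 to CBS5 in cis, Del(CBS1-5); the deletion of Hoxd1 to Hoxd4, Del(d1-d4); the deletion of the neighbouring sub-TAD1, Del(sub-TAD1); and the insertion of a cassette with a pair of CTCF sites, Ins(2xCBS-d4d8). Each mutant had 2 libraries per stage, at 96 and 120 h, except that Del(CBS4) was sampled at 120 and 144 h, Del(CBS1-5) also at 144 h, and the 96 h group of Del(sub-TAD1) had 3 libraries. HoxD lies on chromosome 2, which carries none of the 8 genes.

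Some features limit the groups as models. A library is a pool of stembryos, picked without selection up to 96 h and, from 108 h on, only from elongating aggregates without signs of cell death, so stages before and after that point were sampled differently. The CTCF-site, Del(d1-d4) and insertion lines were edited clones of the wild-type mES line, with Del(CBS1-2) made in Del(CBS1) cells. Instead, cells of Del(sub-TAD1) and of Del(CBS1-5) had been derived from blastocysts of mutant mice on a different, mixed background, and Del(sub-TAD1) cells also carry a transgene that restores Mtx2; for these lines the edit, the genetic background and the derivation of the cells cannot be told apart. The labels do not say whether libraries of a group came from separate cultures, and the p-values measure only the spread between these libraries.

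In the embryo, the epiblast is the pluripotent tissue that forms all fetal germ layers. It passes from a naive to a primed state, in which Otx2 and Pou3f1 come on while Pou5f1 stays active, and then, under Nodal and Wnt signals, its posterior cells enter the primitive streak, lose epithelial character and become mesoderm and endoderm. Eomes and Mixl1 mark the early streak, Gsc its anterior part and Mesp1 the nascent mesoderm, and all are normally switched off as cells move on.

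The annotation of the files, on mm10, placed Pou5f1 (ENSMUSG00000024406) at chr17:35506018-35510772 on the plus strand, Otx2 (ENSMUSG00000021848) at chr14:48657677-48673819 on the minus strand, Utf1 (ENSMUSG00000047751) at chr7:139943789-139945112 on the plus strand and Pou3f1 (ENSMUSG00000090125) at chr4:124656807-124660655 on the plus strand. Eomes (ENSMUSG00000032446) lies at chr9:118478212-118486132 on the plus strand, Mixl1 (ENSMUSG00000026497) at chr1:180693043-180697034 on the minus strand, Gsc (ENSMUSG00000021095) at chr12:104471209-104473330 on the minus strand and Mesp1 (ENSMUSG00000030544) at chr7:79792241-79793788 on the minus strand. Values are per gene, over all its transcripts.

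Promoters are shown for 4 genes: Pou5f1 and Utf1, which below were both lower in 3 lines and both higher at every stage of Del(CBS1-5), and Eomes and Gsc, whose levels were the most alike of any members over the conditions. The sequences are RefSeq's (GRCm38.p6, the mm10 build), each read 5′ to 3′ on the gene's strand from the 250 bases before a transcription start, without the bases that the annotation already places inside the gene. Capitals mark matches to any of 8 motifs searched on both strands: the POU octamer ATGCAAAT, the T-box motif TCACACCT, the TCF/LEF motif CTTTGA, the bicoid-type motif TAATCC, the GC box GGGCGG, the CCAAT box, the TATA box TATAAA and the nuclear receptor half-site AGGTCA.
Pou5f1, chr17:35505782-35506017: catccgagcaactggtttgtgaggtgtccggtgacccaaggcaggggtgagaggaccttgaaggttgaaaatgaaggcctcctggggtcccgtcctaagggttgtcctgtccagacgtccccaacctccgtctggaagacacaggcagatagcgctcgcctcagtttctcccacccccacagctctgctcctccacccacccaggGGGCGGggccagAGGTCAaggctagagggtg
Utf1, chr7:139943606-139943788: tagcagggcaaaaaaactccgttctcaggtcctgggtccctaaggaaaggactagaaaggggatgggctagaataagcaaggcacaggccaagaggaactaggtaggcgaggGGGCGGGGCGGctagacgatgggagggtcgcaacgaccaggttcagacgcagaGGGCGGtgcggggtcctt
Eomes, chr9:118477939-118478188: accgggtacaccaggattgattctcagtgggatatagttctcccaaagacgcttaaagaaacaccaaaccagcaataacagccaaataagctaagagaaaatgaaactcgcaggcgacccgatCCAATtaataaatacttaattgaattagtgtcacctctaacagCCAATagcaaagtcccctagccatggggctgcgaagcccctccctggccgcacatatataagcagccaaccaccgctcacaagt
Gsc, chr12:104473331-104473486: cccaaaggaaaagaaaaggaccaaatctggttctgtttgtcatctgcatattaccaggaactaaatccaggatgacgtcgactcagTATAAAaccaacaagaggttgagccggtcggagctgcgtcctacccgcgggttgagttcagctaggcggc

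In the stretches shown, Pou5f1 and Utf1 both held the GC box, which 32.7% of 32851 RefSeq promoter windows hold, and Pou5f1 also held the half-site AGGTCA (14% of windows). The Eomes stretch held CCAAT (33.8% of windows) and the Gsc stretch TATAAA (12.4%). The GC box was not particular to the former pair, since the full Gsc window also held it, at 2 places in the part inside the annotated gene that is not shown. The 6 genes with an entry (all but Pou3f1 and Mixl1) had 10 full windows between them. TAATCC stood in 2 of these, of Pou5f1 and Otx2 (6.25% of all windows). Both lie inside the annotated genes, and that of Pou5f1 is not the one shown. CTTTGA stood in that of Mesp1 alone (13.8%), while the octamer (1.6%) and the T-box motif (1.12%) stood in none. Matches of different motifs overlapped at 0 places. A match is a run of letters in a window and was not tested as a site.

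The depth, read from the steps between low FPKM values, was 15.02 to 39.08 M fragments per library (median 23.96 M). The libraries formed 2 sets by mitochondrial mRNA: mt-Co3 stood at 995 to 1718 FPKM in 28 libraries (set 1) and at 0.338 to 2.76 FPKM in 33 (set 2), and the sets cut across the mutants. The sets differed in other measures too. Genes named as pseudogenes summed to 31405 to 36036 FPKM in set 1 and to 1706 to 3642 in set 2. Of the low values, 68.6 to 72.8% per library in set 1 and 97.1 to 98.2% in set 2 were whole multiples of 1 fragment. The labels do not name the sets, and the source of the difference was not tested. Set 1 holds Del(sub-TAD1) at 120 h, control replicates 1 to 3 at 96 and 120 h, Del(CBS1-5) at the same stages, Del(d1-d4), Del(CBS1), Del(CBS2) and Del(CBS1-2); set 2 holds the time course, control replicate 4, the 144 h controls and the other mutants. Same-set wild type below means the wild-type libraries of a mutant's own set, time course included. For mutants of set 1 these are control replicates 1 to 3, and for mutants of set 2 they are control replicate 4 and 2 time-course libraries at 96 and 120 h, and 2 controls and 2 time-course libraries at 144 h. Control replicate 3 stood apart from the other controls at both stages (values below), and the mutant calls at 96 and 120 h are given with the values without it. Those lost without it were of Mixl1 in Del(d1-d4) and of Mesp1 in Del(CBS4), both at 120 h. Others were gained, all higher: 1 member in Del(CBS1) and 1 in Del(sub-TAD1) at 120 h, 2 in Del(CBS4) at 144 h, and Otx2 in Del(CBS1-5) at 96 h. In all there were 39 mutant calls without it, 34 of them shared with the 36 of the main fit. As a check of the labels, Hoxd1, Hoxd3 and Hoxd4 were at 4.59 to 35.4 FPKM in the 96 and 120 h controls and at 0 in all Del(d1-d4) libraries; none of the 8 genes lies within an edit.

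All 8 genes fell between 72 h and 168 h of the wild-type time course, from levels that at 72 h ran from 1.67 FPKM for Pou3f1 to 1127 FPKM for Pou5f1 (means of 2 libraries). The means of 7 of them were highest at 72 h, and only that of Mesp1 was highest at 96 h. By limma with Benjamini-Hochberg adjustment the 8 members passed the test at 168 h against 72 h, all lower, where 22.9% of 17098 genes tested passed as lower and 48.2% in either direction. In bulk RNA, fewer cells of a type and less RNA per cell cannot be told apart, here or in any result below.

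**Figure D1:**
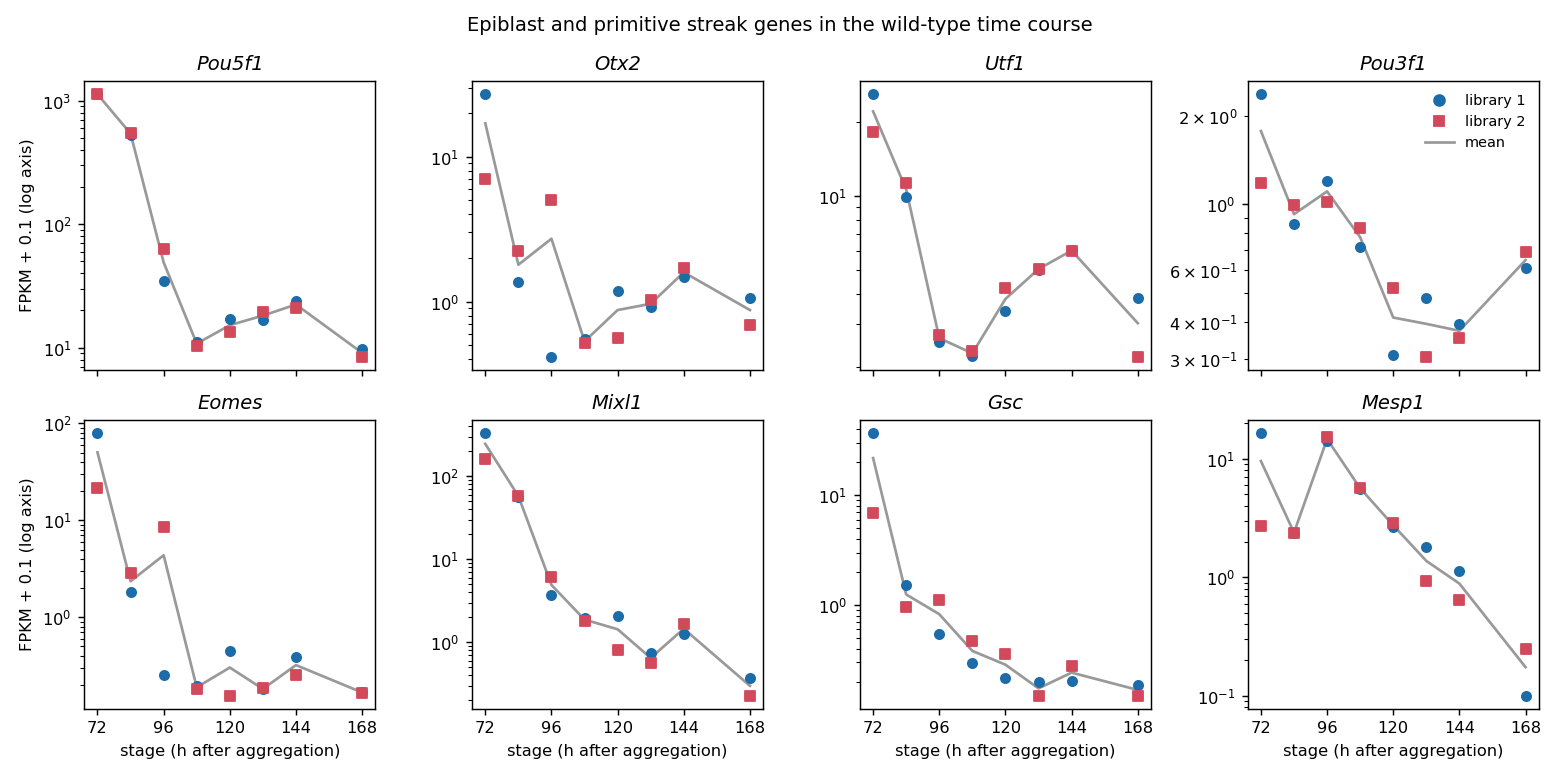
Level of each gene in the wild-type time course, as FPKM + 0.1 on a log axis against hours after aggregation; circles are library 1, squares library 2 and the grey line their mean. Mixl1 and Pou5f1 fall steeply to 108 h, Mesp1 peaks at 96 h, and the libraries of a stage lie far apart for Otx2 and Eomes at 96 h.

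Pou5f1, which encodes the POU factor OCT4 that maintains pluripotency, stood at 1124 and 1129 FPKM at 72 h, 62nd of 55052 genes by mean level. It was at 531 and 552 FPKM at 84 h, 34.7 and 63.3 at 96 h, 11.1 and 10.3 at 108 h, 17 and 13.2 at 120 h, 16.7 and 19.4 at 132 h, 23.8 and 20.8 at 144 h, and 9.58 and 8.36 at 168 h. The mean at 84 h was thus 48.1% of that at 72 h, and those at 96 h and 108 h were 4.35% and 0.948% of it. The fall from 84 to 96 h was −3.53 ± 0.62 on the log2 scale (SE, adjusted p = 4.51e-05, limma) and that from 96 to 108 h was −2.12 ± 0.62 (adjusted p = 0.0231), the latter lost without either time-course library (−2.61 and −1.64). From 108 h on no step passed the test, and the libraries of each later stage stayed between 8.36 and 23.8 FPKM.

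Utf1, a chromatin-bound factor of pluripotent cells, followed a shallower course. It stood at 26 and 18.2 FPKM at 72 h, 9.86 and 11.2 at 84 h, 2.45 and 2.63 at 96 h, 2.12 and 2.25 at 108 h, 3.30 and 4.11 at 120 h, 4.92 and 4.96 at 132 h, 5.92 and 5.88 at 144 h, and 3.75 and 2.11 at 168 h. Its mean was lowest at 108 h, 9.89% of the 72 h mean, and at 144 h it was 26.7% of it, with both 144 h libraries above all libraries of 96 to 132 h. None of the 7 steps passed the test for Utf1, although its 168 h level did against 72 h (−2.90 ± 0.84, adjusted p = 0.00417), and that call was lost without either time-course library (−3.05 and −2.76).

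Otx2, a homeobox factor of the primed epiblast and later of the head, stood at 26.9 and 6.89 FPKM at 72 h and at 1.26 and 2.13 FPKM at 84 h. At 96 h its libraries were at 0.317 and 4.92 FPKM, and from 108 h on all were between 0.415 and 1.60. Pou3f1, the POU factor OCT6 of the primed epiblast and of neural cells, was low throughout: 2.26 and 1.08 FPKM at 72 h, 1.1 and 0.916 at 96 h, 0.208 and 0.420 at 120 h, and 0.508 and 0.588 at 168 h. From 72 to 84 h Otx2 fell by 2.98 ± 0.79 (adjusted p = 0.00661, limma) and Pou3f1 by 0.85 ± 0.26 (adjusted p = 0.0188) on the log2 scale. Both calls were lost without library 1 (−1.65 and −0.25), since the 72 h libraries differed 3.91-fold in Otx2 and 2.09-fold in Pou3f1. Pou3f1 later fell from 108 to 120 h (−0.95 ± 0.26, adjusted p = 0.0197; −0.67 and no call without library 1) and rose from 144 to 168 h (0.80 ± 0.26, adjusted p = 0.0443; no call without library 1 or without library 2, 0.97 and 0.63). That rise was 1 of only 2 among the members over all 7 steps.

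Eomes, the T-box factor that directs streak cells towards definitive endoderm and cardiac mesoderm, stood at 79.2 and 21.3 FPKM at 72 h. It was at 1.74 and 2.76 FPKM at 84 h, 0.155 and 8.36 at 96 h, and between 0.0552 and 0.35 in all 10 libraries from 108 h on. Gsc, the homeobox gene of the anterior streak, stood at 36.7 and 6.76 FPKM at 72 h, 1.43 and 0.867 at 84 h, 0.439 and 1.01 at 96 h, and at most 0.367 from 108 h on. Both genes fell within the first 12 h, Eomes by 4.16 ± 0.84 (adjusted p = 4.08e-04, limma) and Gsc by 3.71 ± 0.60 (adjusted p = 1.68e-05) on the log2 scale, and both calls held without library 1 and without library 2. The first 96 h library held 0.0186 times the Eomes level of the second, and the call for Eomes from 96 to 108 h (−2.96 ± 0.84, adjusted p = 0.0199) rested on it: without library 2 the change was −0.38.

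Mixl1, a paired-type homeobox gene of the streak, had the largest net fall of the 8. It stood at 329 and 160 FPKM at 72 h, 56.7 and 58.3 at 84 h, 3.66 and 5.94 at 96 h, 1.86 and 1.68 at 108 h, 1.15 and 1.56 at 144 h, and 0.27 and 0.128 at 168 h. It fell at 4 of the 7 steps, by 1.99 ± 0.44 from 72 to 84 h (adjusted p = 0.00125, limma), 3.60 ± 0.44 from 84 to 96 h (adjusted p = 1.26e-07), 1.35 ± 0.44 from 96 to 108 h (adjusted p = 0.0486) and 2.31 ± 0.44 from 144 to 168 h (adjusted p = 3.89e-04) on the log2 scale. Without library 1 the first of these was −1.45 and not called; the third was not called without library 1 (−1.76) or library 2 (−0.94), and the last not without library 2 (−1.76).

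Mesp1, the bHLH factor of nascent mesoderm, took another course. It stood at 16.4 and 2.59 FPKM at 72 h, 2.28 and 2.28 at 84 h, 14.0 and 15.1 at 96 h, 5.51 and 5.59 at 108 h, 2.54 and 2.75 at 120 h, 1.72 and 0.832 at 132 h, 1.03 and 0.539 at 144 h, and 0 and 0.148 at 168 h. The 96 h libraries lay above both 84 h libraries, and the rise was 2.62 ± 0.55 on the log2 scale (adjusted p = 4.61e-04, limma). The 72 h libraries differed 6.31-fold, so that the peak stood at 72 h, not 96 h, when library 2 was left out. From 144 to 168 h Mesp1 fell by 2.43 ± 0.55 (adjusted p = 0.00244; −1.36 and no call without library 1), on 29 and 3 fragments over the libraries of each stage, a ratio of 11.6 with a 95% counting interval of 3.60 to 59.5.

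Counted by step, 5 members fell from 72 to 84 h (16.3% of all genes tested passed in either direction), 2 fell and Mesp1 rose from 84 to 96 h (20.7%), 3 fell from 96 to 108 h (9.45%), and 1 fell from 108 to 120 h (7.06%). None passed from 120 to 132 h (2.46%) or from 132 to 144 h (5.42%) by limma, where 1 member each had an unadjusted p under 0.05. From 144 to 168 h 2 fell and 1 rose (9.87%). The counts rest on 2 libraries per stage: without library 1 the number of calls over the 7 steps was 8 of 56 and without library 2 it was 12, against 15 with both. Over all tested genes 10.2% of the comparisons at these steps passed, beside 26.8% for the members. With a pseudocount of 1 FPKM, 12 of the 15 held, and the later steps of Pou3f1 (−0.35 and 0.28) and the last of Mesp1 (−0.72) did not.

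Genes of the same tissues were described from lists of other epiblast and streak genes. At 168 h against 72 h, 9 of 11 tested epiblast genes had fallen and 2 had risen, with a median of −3.84 on the log2 scale beside −0.00 over all genes. Nodal, the TGF-beta ligand of the streak, was at 55.8 and 0.733 FPKM at the 2 stages and Nanog at 74.2 and 2.2. Of 13 streak genes 10 had fallen and none risen (median −3.67), with T, the brachyury gene, at 942 and 9.79 FPKM. In the first 12 h the lists moved differently: 6 of 11 epiblast genes fell and 1 rose (median −1.17), but 3 of 13 streak genes rose and 2 fell (median −0.03), with Tbx6 of the presomitic mesoderm rising from 10.02 to 134 FPKM and T falling from 942 to 405.

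Markers of other cell types gave the setting of the late levels. At 168 h against 72 h, 7 of 7 neural genes had risen (median 6.68), 1 of 2 forebrain genes (1.75), 3 of 6 cardiac genes, with 1 lower (0.51), 2 of 5 endoderm genes (1.07) and 1 of 6 primordial germ cell genes (−0.02), while 1 of 8 naive pluripotency genes had fallen (−0.07). The summed level of the 8 naive genes was 11.2 to 14.1 FPKM at 72 h and 7.37 to 9.08 at 168 h, beside the fall of Pou5f1 from 1127 to 8.97.

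The fall of Mesp1 and Mixl1 also appeared in the controls, which are libraries outside the time course. From 96 to 120 h 4 members fell and none rose, where 27.1% of all genes passed. Mesp1 stood at 15.9, 18.4, 8.61 and 15.8 FPKM in control replicates 1 to 4 at 96 h and at 1.13, 1.33, 1.93 and 0.780 at 120 h (−3.42 ± 0.39 on the log2 scale, adjusted p = 7.97e-09, limma). Mixl1 was at 2.73, 2.37, 5.87 and 1.81 FPKM and then at 0.177, 0.212, 0.734 and 0.340 (−2.82 ± 0.31, adjusted p = 5.39e-09). The groups did not overlap for either gene. Pou3f1 fell by 1.07 ± 0.18 (adjusted p = 1.73e-05) and Pou5f1 by 1.67 ± 0.44 (adjusted p = 0.00322), the latter with overlapping groups. Without control replicate 3 the changes were −3.86 for Mesp1, −2.82 for Mixl1, −1.23 for Pou3f1 and −2.07 for Pou5f1, all called.

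Control replicate 3 differed from its group in Pou5f1, Utf1 and other members. The 96 h controls were at 27.2, 28.7, 80.9 and 32.2 FPKM and the 120 h controls at 4.92, 4.95, 58.6 and 13.4, in replicate order. Utf1 was at 0.303, 0.535, 8.18 and 1.47 FPKM at 96 h and at 0.747, 0.731, 10.3 and 1.63 at 120 h. Replicate 3 thus held 2.82 and 11.9 times the median Pou5f1 level of the other controls at the 2 stages, and 15.3 and 13.8 times their median Utf1 level. The ratios were 6.46 and 9.42 for Otx2 and 5.21 and 15.5 for Eomes, and only Mesp1 at 96 h was lower (0.542). The summed naive genes of replicate 3 were at 25.4 and 24.7 FPKM, beside 3.92 to 8.15 in the other 6 controls of those stages, and its germ cell genes at 12.5 and 14.5 beside 0.953 to 5.81.

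The time course and the controls also differed at the same stage, a comparison added after the values were seen. At 144 h, where all 4 libraries belong to set 2, 5 members were higher in the time course (21.5% of all genes passed): Pou5f1 stood at 23.8 and 20.8 FPKM against 1.25 and 3.30 in the controls (3.38 ± 0.62 on the log2 scale, adjusted p = 1.22e-04, limma). Utf1 was at 5.92 and 5.88 FPKM against 0.407 and 0.0873 (4.28 ± 0.85, adjusted p = 3.11e-04). Otx2 (2.93), Mixl1 (3.05) and Mesp1 (2.45, on 29 and 3 fragments, a ratio of 14.0 with a 95% counting interval of 4.33 to 71.7) were higher too, and the call for Otx2 was lost without control replicate 1 (2.68). In the same contrast 9 of 13 streak genes (median 1.93) and 6 of 11 epiblast genes (0.57) were higher, as were 2 of 6 cardiac genes, with 1 lower (1.39), 2 of 8 naive genes (1.12) and 1 of 6 germ cell genes (0.32), and 3 of 7 neural genes were lower (−0.67). The part of other cell types in the members' levels was not tested. At 96 h Otx2 (1.95) and Eomes (2.14) passed (32.3% of genes), with overlapping groups, and neither without control replicate 1 or without control replicate 2. At 120 h Mixl1 did (1.61, 30.1%), also with overlapping groups (time course 0.705 and 1.96 FPKM, controls up to 0.734). At both stages control replicates 1 to 3 belong to set 1 and the time course to set 2. A difference between the sets thus enters these comparisons, and its part was not tested. Each mutant below was compared with the controls of its stage, so comparisons at 1 stage share their control libraries.

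Of 136 comparisons of a member in a mutant with its controls, 36 passed the test, 23 higher and 13 lower. That is 26.5%, beside 12.1% of the comparisons of all tested genes over the same 17 contrasts, which share control libraries. They lay in 10 of 17 mutant-by-stage comparisons. All 23 higher calls but 1 came from Del(sub-TAD1) at 96 h and from the 3 stages of Del(CBS1-5), and Pou5f1 had the most calls of any member, 4 higher and 5 lower. Utf1 had 4 higher and 3 lower, Mixl1 3 higher and 2 lower, Eomes 4 higher, Otx2 and Gsc 3 higher each, Pou3f1 2 higher and Mesp1 3 lower. With a pseudocount of 1 FPKM in place of 0.1, 23 of the 36 calls held, and those lost include the 3 falls of Utf1 (−1.51 in Del(CBS1), −1.58 in Del(CBS1-2) and −1.44 in Del(d1-d4)) and all 4 rises of Eomes (0.61 to 1.06).

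**Figure D2:**
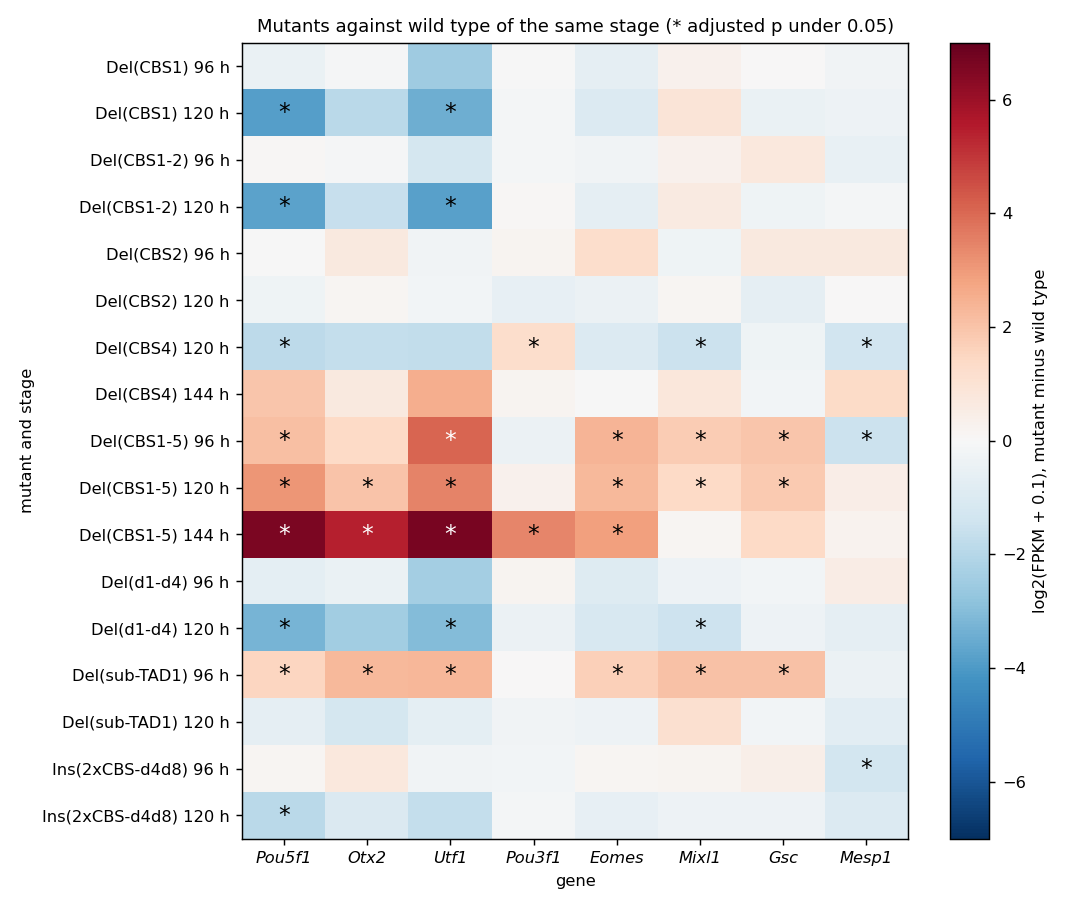
Difference between each mutant and the controls of its stage for each gene, as log2(FPKM + 0.1) with mutant minus wild type on the colour scale (red higher, blue lower); an asterisk marks an adjusted p under 0.05. Rows share control libraries; Del(CBS1-5) at 144 h reaches 6.57 for Pou5f1 and 6.65 for Utf1, and Del(CBS1) at 120 h −3.86 for Pou5f1.

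In Del(CBS1-5) stembryos the pluripotency genes Pou5f1 and Utf1 were higher than in the controls at all 3 stages. Pou5f1 stood at 162 and 167 FPKM at 96 h, 96.1 and 109 at 120 h, and 200 and 207 at 144 h, where its controls were at 1.25 and 3.30. Utf1 stood at 22.8 and 23.0, 20.5 and 21.8, and 25.7 and 37.1 FPKM, all above the lower of the 72 h wild-type libraries, at 26 and 18.2 FPKM. Every one of these libraries lay above every control of its stage, replicate 3 included. The log2 differences from the controls for Pou5f1 were 2.12 ± 0.53 at 96 h (adjusted p = 0.00595, limma), 3.11 ± 0.53 at 120 h (adjusted p = 2.11e-04) and 6.57 ± 0.62 at 144 h (adjusted p = 3.94e-10). For Utf1 they were 4.09 ± 0.73 (adjusted p = 2.01e-04), 3.49 ± 0.73 (adjusted p = 0.00157) and 6.65 ± 0.85 (adjusted p = 1.94e-07). Without control replicate 3 those at 96 and 120 h were 2.48 and 3.87 for Pou5f1 and 4.96 and 4.31 for Utf1, all called. Pou5f1 in the mutant remained well below its 72 h wild-type level of 1127 FPKM at each stage.

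Otx2 and Pou3f1, the primed epiblast genes, were highest in this line at 144 h. Otx2 was at 0.823 and 0.978 FPKM at 96 h, 1.73 and 2.39 at 120 h, and 8.90 and 9.13 at 144 h, beside 0.0756 and 0.148 in the 144 h controls. Pou3f1 was at 0.482 and 0.516, 0.384 and 0.347, and then 3.25 and 4.17 FPKM, above all other libraries. At 144 h Otx2 was higher than in the controls by 5.45 ± 0.79 (adjusted p = 1.95e-06, limma) and Pou3f1 by 3.41 ± 0.26 (adjusted p = 2.46e-12) on the log2 scale. At 120 h Otx2 was higher by 2.00 ± 0.68 (adjusted p = 0.0463), with groups that overlapped because control replicate 3 was at 2.00 FPKM, and the call was lost without control replicate 1, 2 or 4 (1.74, 1.60 and 2.00). At 96 h neither gene passed (1.42 and −0.43; 1.95 and called for Otx2 without replicate 3).

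The streak genes followed another order in Del(CBS1-5). Eomes was at 1.75 and 1.59 FPKM at 96 h, 1.00 and 1.01 at 120 h, and 0.947 and 1.08 at 144 h, higher than in the controls by 2.40, 2.28 and 2.86 on the log2 scale (adjusted p = 0.0220, 0.0330 and 0.0108, limma). Gsc was higher at 96 h (1.13 and 1.11 FPKM, log2 difference 1.93) and 120 h (0.819 and 0.699 FPKM, 1.86), and at 144 h its difference of 1.42 did not pass. Mixl1 was at 10.4 and 10.1 FPKM at 96 h and 0.902 and 1.09 at 120 h, higher by 1.79 and 1.37, but at 144 h it was at 0.0744 and 0.114, beside 0.111 and 0.0436 in the controls. Mesp1 alone was lower, at 4.41 and 5.62 FPKM at 96 h beside controls of 8.61 to 18.4 (−1.49 ± 0.47, adjusted p = 0.0293). The calls for Mesp1 and Eomes at 96 h and for Eomes and Mixl1 at 120 h were each lost without control replicate 1 or 2 (Eomes 2.00 to 2.26, Mixl1 1.17 and 1.23, Mesp1 −1.36 and −1.43), and that for Eomes at 144 h without control replicate 2 (2.24). Without control replicate 3 the calls of these genes at 96 and 120 h held, with Eomes at 2.87 and 2.72, Gsc at 2.11 and 2.27, Mixl1 at 2.12 and 1.70, and Mesp1 at −1.72 at 96 h; Otx2 at 120 h held too (2.66).

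Counted by stage, 5 members were higher and 1 lower in Del(CBS1-5) at 96 h (8.45% of all genes passed as higher and 14.8% in either direction), 6 were higher at 120 h (6.42% and 13.3%) and 5 at 144 h (15.5% and 23.7%). Against control replicates 1 to 3 only, the controls of their own library set, the calls that held were Utf1 (4.16), Eomes (2.40) and Gsc (1.76) at 96 h and Pou5f1 (3.17) and Utf1 (3.45) at 120 h, and the other calls of those stages had the same sign and did not pass. At 144 h the controls already belong to the set of the mutant. When the 2 time-course libraries of that stage, which differ from the controls as given above, were added to them, all 5 calls held with smaller differences, 4.88 for Pou5f1, 3.99 for Otx2, 4.51 for Utf1, 2.34 for Eomes and 3.38 for Pou3f1. With either library of every mutant left out, the calls at 144 h other than that for Eomes held, and those at 96 and 120 h did not, with sizes of 1.25 to 4.09 on the log2 scale.

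The change from 120 to 144 h within Del(CBS1-5) was added after the values were seen. Otx2 (2.09 ± 0.79, adjusted p = 0.0276, limma) and Pou3f1 (3.02 ± 0.26, adjusted p = 7.09e-11) rose, and Mixl1 (−2.50) and Mesp1 (−3.30; 104 and 4 fragments, a ratio of 19.1 with a 95% counting interval of 7.23 to 71.4) fell. Here 48.6% of all genes passed, and the stages lie in different library sets, so stage and set cannot be told apart. With library 1 or library 2 of every mutant left out, which leaves 1 library per stage here, only Pou3f1 held in both cases (2.79 and 3.26). The calls for Otx2 (1.89 and 2.30) and Mixl1 (−2.47 and −2.52) were lost in both, and that for Mesp1 without library 1 (−2.78).

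Other genes of pluripotency moved with Pou5f1 and Utf1 in Del(CBS1-5). Of 8 naive pluripotency genes, 7 were higher at 96 h (median 2.62 on the log2 scale, beside 0.04 over all genes), 6 at 120 h (2.21) and 7 at 144 h, with 1 lower (3.37). Esrrb, a nuclear receptor of naive cells, was at 12.9 FPKM against 1.64 at 96 h and at 11.3 against 0.518 at 144 h. Of 11 epiblast genes 4 were higher and 2 lower at 96 h (median 0.50), 6 and 1 at 120 h (1.76) and 7 and 1 at 144 h (1.72); Nanog was at 32.9 FPKM against 0.286 at 144 h and Tdgf1, the Nodal co-receptor, at 56.0 against 0.246. Of 6 primordial germ cell genes, 1 of them also in the naive list, 5, 3 and 3 were higher (medians 2.62, 2.44 and 2.88), with Dppa3 at 36.3 FPKM against 0.216 at 144 h.

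The streak list showed no common direction in this line: 2 genes were higher and 2 lower at 96 h (median 0.10), 2 higher at 120 h (0.62), and 1 higher and 3 lower at 144 h (0.34). Lefty2, a Nodal antagonist and target, was the streak gene with the largest rise at each stage, at 82.3 FPKM against 7.05 at 96 h and 24.1 against 0.0457 at 144 h. Of 7 neural genes 4 were lower at 144 h (median −1.50), among them Neurog2 at 1.03 FPKM against 12.7, and 3 of 5 endoderm genes were lower (−1.87). The summed naive genes ran from 37.3 to 54.7 FPKM over the 6 libraries of this line, and their germ cell genes from 29.2 to 57.5. Their part in the levels of Pou5f1 and Utf1 was not tested.

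**Figure D3:**
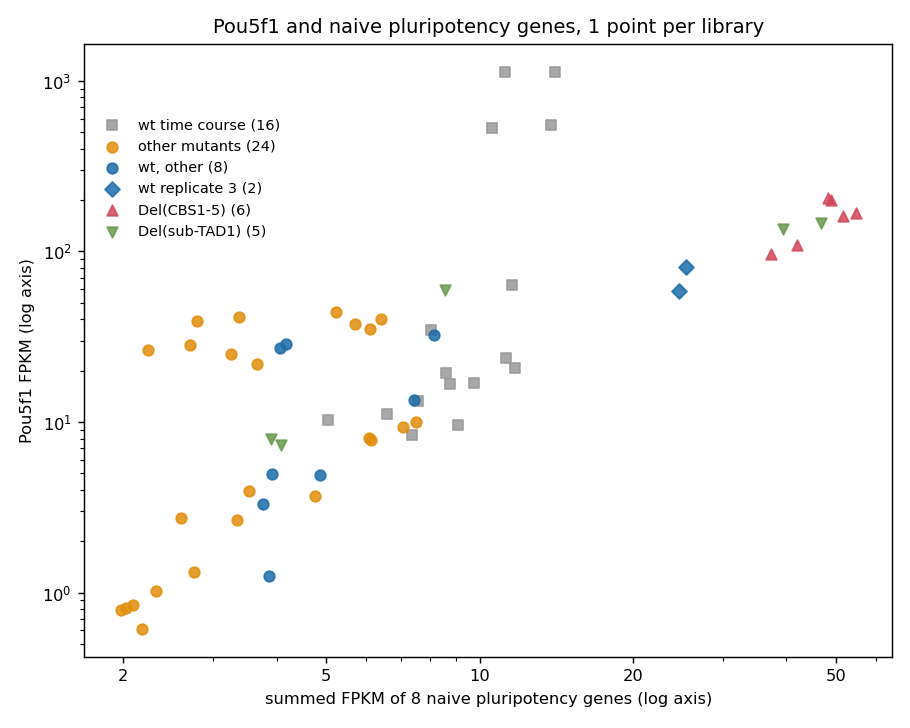
Pou5f1 FPKM against the summed FPKM of 8 naive pluripotency genes, both on log axes, with 1 point per library for the 61 libraries. Del(CBS1-5) libraries (red) combine 96.1 to 207 FPKM of Pou5f1 with a naive sum of 37.3 to 54.7, whereas the 72 h wild type reaches 1129 FPKM with a sum of at most 14.1.

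The plot of Pou5f1 against naive genes separates these libraries from the early wild type. At 72 h Pou5f1 stood at 1124 and 1129 FPKM with a naive sum of 11.2 to 14.1, while every Del(CBS1-5) library had a higher naive sum with less Pou5f1. On the naive axis control replicate 3 lay between the other controls and Del(CBS1-5), and replicates 2 and 3 of Del(sub-TAD1) at 96 h, at 39.3 and 46.8 FPKM, lay within the range of Del(CBS1-5).

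In Del(sub-TAD1) stembryos 6 members were higher at 96 h, where 21.8% of all genes passed as higher and 40% in either direction. Mixl1 stood at 10.4, 13.7 and 12.8 FPKM in replicates 1 to 3, beside controls of 1.81 to 5.87 (2.04 ± 0.34 on the log2 scale, adjusted p = 3.55e-05, limma). Gsc was at 0.851, 1.68 and 1.31 FPKM beside 0.125 to 0.363 (2.06 ± 0.46, adjusted p = 7.26e-04). For these genes the groups did not overlap. Pou5f1 was at 59.7, 135 and 147 FPKM (1.48 ± 0.47, adjusted p = 0.0121), Utf1 at 3.44, 8.80 and 9.48 (2.31 ± 0.65, adjusted p = 0.00471), Otx2 at 0.905, 2.35 and 2.32 (2.28 ± 0.60, adjusted p = 0.00307) and Eomes at 0.674, 1.17 and 1.07 (1.65 ± 0.64, adjusted p = 0.0391), each with mutant replicate 1 inside the range of the controls. Without control replicate 3 all 6 calls held, at 2.38 for Mixl1, 2.24 for Gsc, 1.85 for Pou5f1, 3.18 for Utf1, 2.81 for Otx2 and 2.11 for Eomes.

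Within this group replicate 1 was the low library for all 6 of these genes and the high one for Mesp1, at 17.8 FPKM against 9.16 and 7.09. Its naive sum was 8.54 FPKM beside 39.3 and 46.8 in replicates 2 and 3, and 6 of 8 naive genes and 5 of 6 germ cell genes were higher than in the controls (medians 1.88 and 1.76). Of 5 endoderm genes 4 were higher and 1 lower. Without mutant replicate 1 the calls for Mixl1 (2.16) and Gsc (2.31) held, while those for Pou5f1 (1.89), Otx2 (2.7), Utf1 (2.77) and Eomes (1.87) did not pass. Without mutant replicate 2 only that for Mixl1 held, with Gsc at 1.86, Otx2 at 2.06 and Utf1 at 2.11. Pou5f1 (1.24) and Eomes (1.57) were also lost without mutant replicate 3, and Eomes without control replicate 1 (1.51) or 2 (1.33). Against same-set wild type, which is control replicate 4 and the 2 time-course libraries, only Mixl1 passed (1.81), and Gsc was at 1.38, Pou5f1 at 1.35, Utf1 at 1.60, Otx2 at 1.1 and Eomes at 0.23.

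At 120 h no member passed in Del(sub-TAD1) (6.15% of all genes did), with 1 at an unadjusted p under 0.05. Without control replicate 3, 1 member was called higher, where 9.6% of all genes passed. Pou5f1 was at 7.38 and 7.91 FPKM and Utf1 at 1.01 and 1.15, inside the range of the 120 h controls. The change from 96 to 120 h differed from that of the controls for Otx2 (−3.53 ± 0.91, adjusted p = 0.0059, limma), Utf1 (−2.99 ± 0.98, adjusted p = 0.0234), Gsc (−2.24 ± 0.69, adjusted p = 0.0165) and Pou5f1 (−2.10 ± 0.71, adjusted p = 0.0289), where 23.6% of all genes passed. The 96 h libraries of this line belong to set 2 and the 120 h libraries to set 1, so stage and set cannot be told apart. All 4 calls were lost without mutant replicate 1 (−4.10, −3.36, −3.05 and −2.46) and without mutant replicate 2 (−3.17, −2.87, −1.47 and −1.98), those for Utf1 (−2.73) and Pou5f1 (−1.87) also without mutant replicate 3, and that for Pou5f1 without control replicate 4 (−1.96), while all 4 held without control replicate 3 (−3.41, −3.04, −2.0 and −1.70). In the same contrast 6 of 8 naive genes had a larger fall in the mutant (median −2.59).

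Pou5f1 and Utf1 were lower than in the controls at 120 h in Del(CBS1), Del(CBS1-2) and Del(d1-d4). Pou5f1 stood at 0.612 and 0.848 FPKM in Del(CBS1), 0.792 and 0.812 in Del(CBS1-2) and 1.31 and 1.03 in Del(d1-d4), all below the lowest control at 4.92. The log2 differences were −3.86 ± 0.53 (adjusted p = 6.46e-05, limma), −3.72 ± 0.53 (adjusted p = 1.14e-04) and −3.24 ± 0.53 (adjusted p = 4.92e-04). They were −3.09, −2.96 and −2.47 without control replicate 3, all still called, and −3.80, −3.66 and −3.18, also called, against control replicates 1 to 3, the controls of the same set. With either library of every mutant left out no call in these lines held (Pou5f1 −3.08 to −4.06).

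Utf1 was close to the limit of detection there. It stood at 0.125 and 0.0382 FPKM in Del(CBS1), 0.0330 and 0.0333 in Del(CBS1-2) and 0.211 and 0.0680 in Del(d1-d4), beside 0.731 to 10.3 in the controls. The limit that 3 fragments set for Utf1 ran from 0.0722 to 0.188 FPKM over the libraries. In Del(CBS1) the level rests on 4 fragments against 357 in the 4 controls, a depth-scaled ratio of 43.9 with a 95% counting interval of 17 to 162, and in Del(CBS1-2) on 2 fragments against 357, a ratio of 106 with an interval of 29.0 to 875. Control replicate 3 supplies 281 of the 357. Against the 76 fragments of the other 3 controls the ratios were 12.7 (4.78 to 48.0) and 30.7 (8.20 to 258). The calls (−3.42, −3.83 and −3.05 on the log2 scale; adjusted p = 0.00712, 0.00383 and 0.0207) held without control replicate 3 at −2.60, −3.00 and −2.22, and none held against control replicates 1 to 3 only, where the differences were −3.46, −3.87 and −3.09.

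In all, 2 members were lower in Del(CBS1) at 120 h (0.807% of all genes passed as lower and 2.1% in either direction), 2 in Del(CBS1-2) (1.3% and 2.35%) and 3 in Del(d1-d4) (1.53% and 1.85%), the third being Mixl1 at 0.106 and 0.0170 FPKM (−1.44 ± 0.38, adjusted p = 0.0405, limma). That call for Mixl1 was lost without control replicate 3 (−1.12) or 4 (−1.42). Without control replicate 3, 1 member was also called higher in Del(CBS1), where 2.28% of all genes passed. Beside these falls, 1, 2 and 1 of 8 naive genes were lower in the 3 lines (medians −1.66, −1.62 and −1.32), while 4 of 5 endoderm genes were higher in Del(CBS1) (2.21) and 2 of 5 in Del(CBS1-2) (1.67). In Del(d1-d4) 4 of 13 streak genes were lower (−0.96). At 96 h no member passed in any of these lines (1.23%, 4.49% and 1.19% of all genes did), with 1, 0 and 1 at an unadjusted p under 0.05. Utf1 was at 0.0799 and 0.226 FPKM in Del(CBS1) and at 0.206 and 0.117 in Del(d1-d4), below its 4 controls, with adjusted p of 0.0802 and 0.0909 (limma). Whether the change from 96 to 120 h differed from that of the controls was tested for each line: Pou5f1 passed in Del(CBS1-2) (−3.81 ± 0.76, adjusted p = 0.0181, 0.175% of all genes), where it went from 41.5 and 38.8 FPKM to 0.792 and 0.812. That call held without control replicate 3 (−3.41) and was lost without control replicate 4 (−3.67) or either mutant library (−3.75 and −3.87). No member passed in Del(CBS1) (0.0526%), Del(d1-d4) (0.0234%), Del(CBS2) (0.0117%), Del(CBS1-5) (0.257%) or Ins(2xCBS-d4d8) (0.392%) by limma. Without control replicate 3, 1 member passed in Del(CBS1) with a negative difference (0.0585% of all genes), and still none in the other lines just named. A limma fit with the replicate number as a block pairs the controls of 96 and 120 h. It also ties same-numbered libraries of controls and mutants, which shared little beyond the number. In that fit Pou5f1 passed in 3 more lines with the same sizes, at −3.39 in Del(CBS1) (adjusted p = 0.00182; 0.0723 without the block), −2.54 in Del(d1-d4) (0.0362; 0.336) and −2.0 in Ins(2xCBS-d4d8) (0.0451; 0.355). It made 8 member calls in place of 5 over the 7 contrasts.

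**Figure D4:**
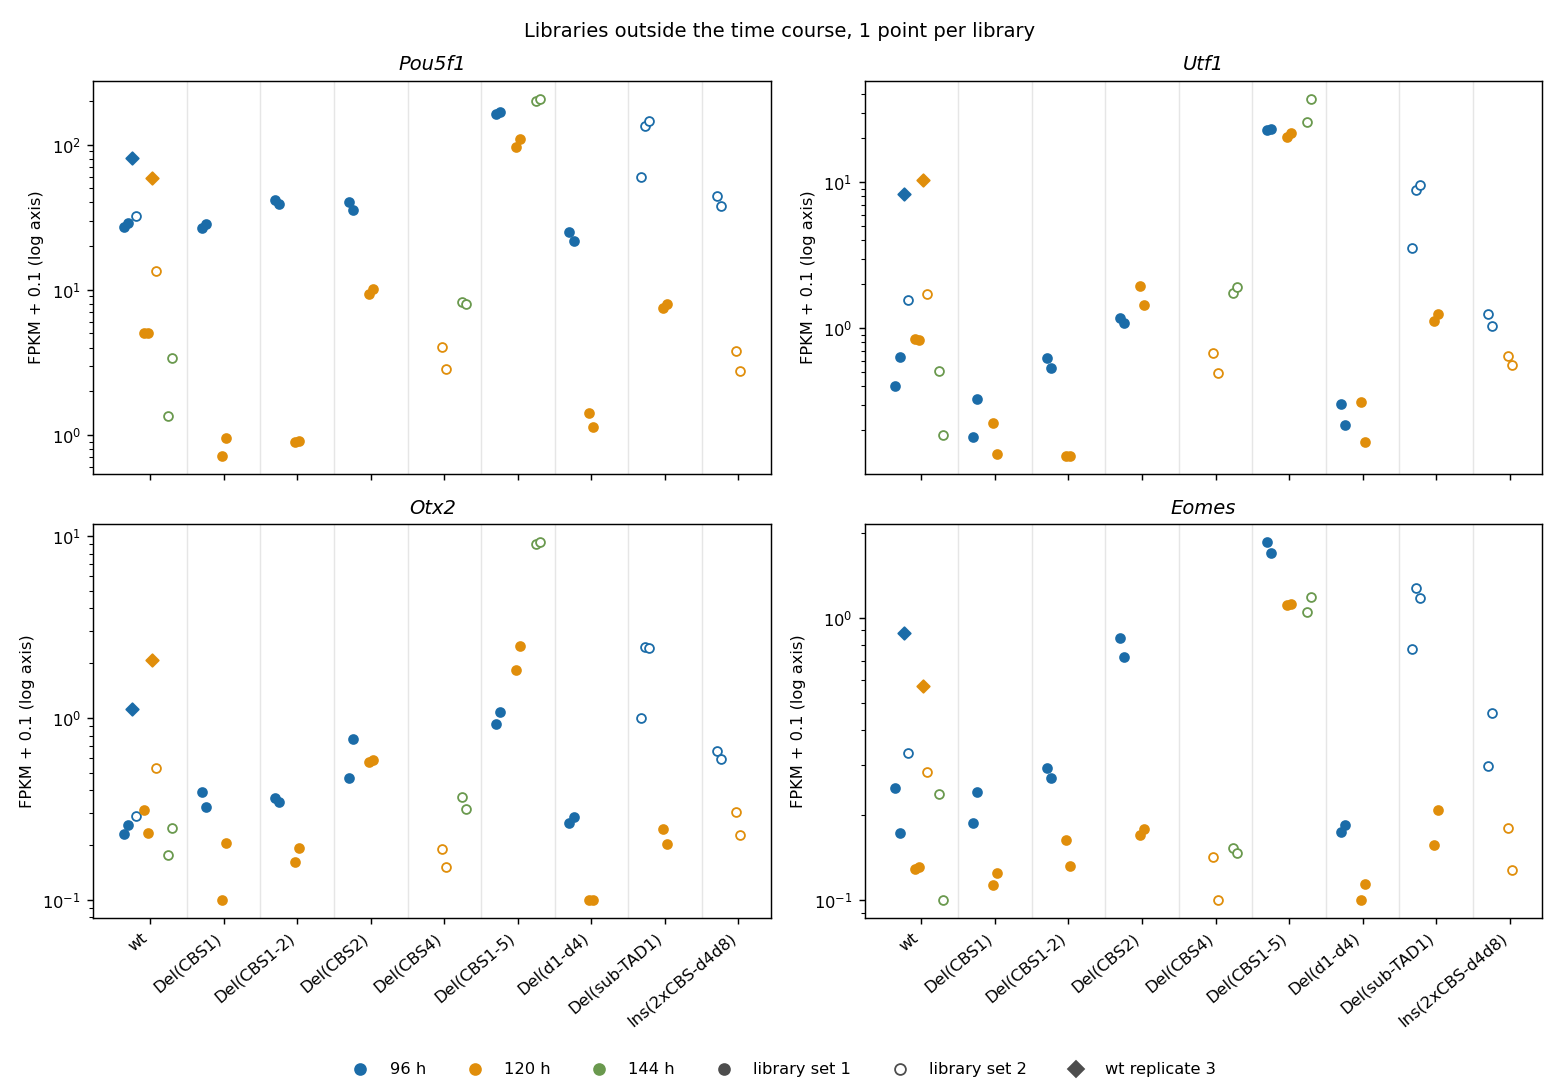
FPKM + 0.1 (log axis) of Pou5f1, Utf1, Otx2 and Eomes in each library outside the time course, coloured by stage, filled for library set 1 and open for set 2; diamonds are control replicate 3. Del(CBS1-5) lies above all controls in Pou5f1 and Utf1, and Del(CBS1), Del(CBS1-2) and Del(d1-d4) lie below them at 120 h.

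The plot of single libraries also shows the lines with few calls. In Del(CBS2) no member passed at 96 h (0.298% of all genes did) or 120 h (0.193%) by limma, with 0 and 1 at an unadjusted p under 0.05. Pou5f1 was at 40.2 and 35.2 FPKM and then at 9.32 and 9.99 in that line, within the range of the controls at both stages.

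In Del(CBS4) at 120 h 4 members passed, where 37.5% of all genes did. Pou3f1 was at 0.809 and 0.790 FPKM beside 0.194 to 0.446 in the controls (1.23 ± 0.22 on the log2 scale, adjusted p = 1.13e-04, limma; 1.40 and called without control replicate 3). Pou5f1 was lower at 3.94 and 2.73 FPKM (−1.82 ± 0.53, adjusted p = 0.00752; −1.05 and still called without control replicate 3), as was Mixl1 at 0.0675 and 0.0304 (−1.51 ± 0.38, adjusted p = 0.00257; −1.19 and still called without that replicate). Mesp1 was at 0.583 and 0.292 FPKM (−1.36 ± 0.47, adjusted p = 0.0223), a call lost without control replicate 3 (−1.16). Against same-set wild type, here control replicate 4 and the 2 time-course libraries of 120 h, Pou3f1 (1.22) and Mixl1 (−2.61) held, and Pou5f1 (−2.10) and Mesp1 (−1.86) did not pass. Mixl1 itself was higher in the time course than in the controls at that stage, as given above. With either library of every mutant left out none of the 4 held (sizes of 0.96 to 2.07). In the same contrast 5 of 7 neural genes were higher and 1 lower (median 1.98), with Pax6 at 30.0 FPKM against 4.30, and 8 of 13 streak genes were lower (−1.02).

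At 144 h no member passed in Del(CBS4) (2.05% of all genes did) by limma, and 3 had an unadjusted p under 0.05. In the fit without control replicate 3, 2 members were called higher (2.54% of all genes passed). That replicate has no library at 144 h, so only the shared estimate of the spread differed. Pou5f1 was at 8.09 and 7.89 FPKM, between the controls (1.25 and 3.30) and the time course of that stage (23.8 and 20.8), and Utf1 at 1.64 and 1.81 lay between them too.

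In Ins(2xCBS-d4d8) 1 member was lower at each stage, Mesp1 at 96 h (27.9% of all genes passed) and Pou5f1 at 120 h (26.9%). Mesp1 stood at 4.07 and 7.93 FPKM beside controls of 8.61 to 18.4 (−1.30 ± 0.47 on the log2 scale, adjusted p = 0.0381, limma), and the call was lost without control replicate 1 (−1.24), control replicate 2 (−1.17) or either mutant library (−0.82 and −1.77). Pou5f1 was at 3.66 and 2.65 FPKM beside 4.92 to 58.6 (−1.89 ± 0.53, adjusted p = 0.00816; −1.12 and still called without control replicate 3, and lost without either mutant library). Without control replicate 3 the call for Mesp1 held (−1.53). Neither held against same-set wild type (control replicate 4 and the 2 time-course libraries of the stage), where the differences were −1.38 and −2.18.

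The likeness of other genes to each member was measured by Pearson's r of log2(FPKM + 0.1) over the 28 condition means, which share libraries and stages, and is given as a description. The genes most like Pou5f1 were Ephx2 (0.981), Zfp36l3 (0.957) and Fmr1nb (0.938), and those most like Utf1 were Tdh (0.970), Fkbp6 (0.963) and Rbmxl2 (0.957). For Otx2 they were Mta3 (0.934), L1td1 (0.933) and Foxi3 (0.924), and for Pou3f1, whose likenesses were the lowest, Actn3 (0.891), Rims4 (0.85) and Mbnl3 (0.834). Eomes and Gsc had the same 3, namely Slc29a1 (0.947 and 0.954), Jakmip1 (0.940 and 0.934) and Chrna9 (0.938 and 0.933). Mixl1 was most like T (0.969), Tcf7 (0.951) and Rtl8c (0.932), and Mesp1 most like Lef1 (0.938), Tbx6 (0.927) and Rftn1 (0.922). Among the members themselves Eomes and Gsc were the most alike (0.96) and Utf1 and Mesp1 the least (−0.01), while Pou5f1 was less like Utf1 (0.792) than Eomes (0.866), Otx2 (0.85) or Gsc (0.830).

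The lowest values rest on few fragments. Of the 5 members with 1 transcript, for which fragments could be counted back, Gsc was at or under the limit of 3 fragments in 23 of 61 libraries, Utf1 in 7, Mesp1 in 6, Mixl1 in 4 and Pou3f1 in 0. The net falls of Gsc and Mesp1 from 72 to 168 h rest on 3 fragments each at 168 h, with ratios of 331 (95% counting interval 113 to 1609) and 146 (49.6 to 710). These intervals cover counting error only.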

How the data were processed

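RNA-seq was done by the authors on poly(A)-selected RNA of pooled stembryos with a stranded kit. By their account, they trimmed reads with cutadapt 1.16, mapped them with STAR 2.7.7a on mm10 and kept unique alignments. They deposited FPKM values from Cufflinks 2.2.1 for 55052 genes in 61 libraries. The account gives 1 procedure, but the 2 library sets differ as given above, and whether both were processed alike was not tested. FPKM are scaled to transcript length and to the total fragments of each library, so a gene's value also moves with the rest of its library, and the depth of 15.02 to 39.08 M fragments was inferred from the steps between low values (per library 97.1 to 98.2% of the low values in set 2, and 68.6 to 72.8% in set 1, were whole multiples of 1 fragment within 0.02).

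Tests were run on log2(FPKM + 0.1) with limma 3.58.1 (R 4.3.3), 1 coefficient per condition over all 61 libraries, on 17098 genes with a mean of at least 1 FPKM in at least 1 condition, two-sided, with Benjamini-Hochberg adjustment per contrast and a threshold of 0.05. Fold changes on this scale understate those of low genes. The script was tested on simulated data. Groups came from the labels, and each mutant was set against the wild type of its stage outside the time course. All 8 members were tested in every comparison, but of those that did not pass the text gives values for only some. From the lists at most 4 called genes each were named by largest change, and for each member the 3 genes most like it. The members and the lists (epiblast, primitive streak, naive pluripotency, primordial germ cell, neural, forebrain, cardiac and endoderm genes) were chosen with earlier results of these data known. The comparisons of the time course with the controls and of Del(CBS1-5) at 144 and 120 h, and the Utf1 fragment ratios without control replicate 3, were added after values were seen.

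Same-numbered controls of 96 and 120 h deviated together (r = 0.672, 0.662, 0.679 and 0.924 for the 4 pairs), and a fit with the number as a block called the same 4 members there. The deviations were taken from group means over both library sets, so a difference between the sets enters these r, and its part was not tested. Alternatives were another pseudocount (1 FPKM), no filter, other scalings, a trended robust fit, fits of the compared groups alone, the replicate block, each library number left out, and other sets of controls. Counting intervals are exact at 95%. Promoter windows are RefSeq's. Figures were drawn in Python 3.11.15 with matplotlib 3.10.9.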

Additional observations from a re-analysis of the deposited data

Results flagged for a closer look

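Among the control groups of 4 libraries, 16 combinations of a member and a stage were examined for a library far from its group by Dixon's ratio of the gap to the range, of which chance would give about 1 in 20 past the 95% critical value. Replicate 3 was the library farthest from the rest in 15 of them, and in 7 of these its gap passed the critical value. The 8 genes of a stage come from the same libraries. Over the genes compared, replicate 3 deviated alike at both stages (r = 0.679), as did replicates 1, 2 and 4 (0.672, 0.662 and 0.924). These deviations are from a mean over replicates 1 to 3 of set 1 and replicate 4 of set 2. A difference between the sets thus enters r, and its part was not tested. The 16 are thus not separate chances. The share over all genes was not computed, so whether replicate 3 stands apart in these members in particular was not tested. The 7 that passed were, at 96 h, Pou5f1 at 80.92 FPKM, Otx2 at 1.024 and Utf1 at 8.175, and at 120 h Pou5f1 at 58.62, Otx2 at 1.995, Utf1 at 10.31 and Gsc at 0.4595. In the same library the summed naive pluripotency genes were at 25.4 FPKM at 96 h and 24.7 at 120 h, and its part in these levels was not tested.

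The change from 96 to 120 h differed between a mutant and the controls, by limma's test of that difference, for Pou5f1 in Del(CBS1-2) (−3.81 on the log2 scale) and for Otx2 (−3.53), Utf1 (−2.99), Gsc (−2.24) and Pou5f1 (−2.10) in Del(sub-TAD1). Pou5f1 fell in both 120 h libraries of Del(CBS1-2) below all 4 controls. In Del(sub-TAD1) the stages lie in different library sets, so stage and set cannot be told apart.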

How the results depend on the processing

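Of 1011 recomputed values for the 80 member changes that passed, 761 kept their call, 250 lost it and 0 turned direction. Fits of the compared groups alone, with few libraries to estimate the spread, gave 3 instead of 15 member calls between successive stages, 5 instead of 8 at 168 h, 5 instead of 36 in mutants and 0 instead of 5 in the differences of change, and over all genes 2342 instead of 12183 calls in the time course and 4890 instead of 35213 in mutants. In mutants, a pseudocount of 1 FPKM gave 23 member calls and same-set wild type 16 (18144 over all genes). With the time-course libraries among the controls the differences of change gave 2 calls and all genes in mutants 18622. Leaving out 1 library number gave 8 to 12 calls between stages, 7 at 168 h, 4 to 39 in mutants, 4 in wild type from 96 to 120 h and 0 to 6 in the differences of change, and over all genes 7171 to 7560 in the time course and 3395 to 44898 in mutants. The lowest of these came with a mutant library number left out of every line, where the lone library left is assumed to vary like the other groups (the 4 is the count for Del(sub-TAD1) at 96 h alone, with 6 calls otherwise). The peak of Mesp1 moved from 96 to 72 h.

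With the replicate number as a block, 19 member calls were made between stages, 8 at 168 h, 40 in mutants, 4 in wild type and 8 in the differences of change, and over all genes 19659 in the time course. Outside the wild-type pairs of 96 and 120 h, same-numbered libraries shared little beyond the number. Depth limits Gsc, Utf1, Mesp1 and Mixl1 at their lowest levels.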
